A study of Homo sapiens with 12 samples.

Results

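The replication-dependent histone genes encode the H1, H2A, H2B, H3 and H4 proteins that package newly copied DNA. They were taken as every gene whose symbol has the form H1-1 to H1-6, H2AC, H2BC, H3C or H4C followed by a number. This gave 68 of the 37247 genes listed: 6 H1, 17 H2A, 18 H2B, 12 H3 and 15 H4 genes. H3C15 was not analysed here. The set was proposed with earlier results of treated against parent cells known, so the counts below describe that contrast and are not independent support for it.

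Expression was measured by RNA-seq in 2 human cancer cell lines. LC-2/ad is a lung adenocarcinoma line and TPC-1 a papillary thyroid carcinoma line, and both are known to carry a fusion of the RET kinase gene. Each line was compared as parent cells, whose treatment is given as none, and as cells kept for 48 h in 100 nM selpercatinib, an inhibitor of RET. Each of the 4 groups had 3 libraries, 12 in all. Whether solvent was given to the parent cells, or whether a group's libraries are separate cultures, is not stated. The p-values therefore measure only the spread between these libraries, which may be technical. Each group is 1 established line, and in bulk RNA fewer cells that express a gene and less of its RNA per cell cannot be told apart. Values are TPM, a measure of transcript abundance scaled by length that adds up to 1000000 in each library, so the sequencing depth is unknown. The tables of the lines were normalized separately, and levels set side by side across lines carry no test.

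Of the 6 lung epithelium markers, 3 averaged at least 1 TPM in LC-2/ad, and the surfactant gene SFTPC was at 0. None of the 6 reached 1 TPM in TPC-1, where NKX2-1, SFTPA1 and SFTPC were at 0. Of the 6 thyroid markers, 2 reached 1 TPM in TPC-1 (sums of 163 to 242 TPM in parent and 265 to 295 TPM in treated libraries), again with NKX2-1 at 0, and 3 in LC-2/ad. The 5 blood markers summed to at most 1.66 TPM in any library and HBB was at 0 in both lines. Endothelial markers summed to at most 5.09 TPM and fibroblast markers to 24.3 to 40.9 TPM. Epithelial marker sums also did not overlap between groups, at 5402 to 5563 TPM in parent and 3935 to 4010 TPM in treated LC-2/ad libraries, and 2828 to 3148 TPM and 2446 to 2472 TPM in TPC-1. Lung marker sums in LC-2/ad were 181 to 196 TPM in parent and 240 to 245 TPM in treated libraries. These values moved with treatment, and their part in the histone values was not tested.

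Most histone genes of this kind lie in clusters, lack introns and are transcribed mainly while DNA is copied. Their mRNAs are unusual in ending not in a poly(A) tail but in a short stem-loop, which is bound by SLBP. The end of the mRNA is formed by cleavage after the stem-loop, guided by the U7 small nuclear ribonucleoprotein. Some of the genes also give longer transcripts that run past the stem-loop and carry a tail. Replication-independent variants such as H3-3A are made from tailed mRNAs throughout the cell cycle. Whether libraries were made by poly(A) selection is not stated, and the 12 RNAs listed here as lacking a tail (such as RN7SK and RMRP) are not among the genes of the tables, so the recovery of RNA without a tail was not tested.

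In the GENCODE 29 annotation (GRCh38), 30 of the 68 genes had a transcript that contains the stem-loop motif, and some are shown for genes whose annotated transcripts differ in what follows the stem-loop. In 22 genes an annotated transcript ran on for 100 bases or more past the motif, and in 8 every transcript with the motif ended near it. Transcripts without the motif were not used to sort these genes. The other 38 had no motif in an annotated transcript. Their annotated transcripts can be short (381 bases for H2BC12, 411 for H3C1 and 312 for H4C1), and sequence past the annotated end was not searched. A missing motif is therefore a trait of the annotation and does not show that the gene lacks a stem-loop. Each line gives 26 bases, 5′ to 3′, with the 16 bases of the stem-loop in capitals.
H2AC6: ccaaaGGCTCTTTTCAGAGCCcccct
H2AC25: ataaaGGCTCTTTTCAGAGCCaccta
H2AC19: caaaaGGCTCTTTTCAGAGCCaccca
H2BC5: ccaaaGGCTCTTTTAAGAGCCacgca
H3C6: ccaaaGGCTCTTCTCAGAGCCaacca
H4C11: taaaaGGCCCTTTTCAGGGCCaccct
H4C14: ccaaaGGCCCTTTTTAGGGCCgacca
The H2A form printed for H2AC6 was found in 6 of the 7 H2A genes with a motif, in 8 of 11 H2B genes and in 2 of 4 H3 genes. The other 3 H2B genes had the form of H2BC5, which 1 H3 gene shared. All 8 H4 genes with a motif had a form shown for H4 genes, 5 that of H4C11 and 3 that of H4C14. Past the motif the annotation ran on for 1128 bases in H2AC6, 390 in H2AC25, 1862 in H3C6 and 1167 in H4C14, and for 39 in H2BC5, 35 in H2AC19 and 6 in H4C11. H2BC5 has 2 annotated transcripts, of 496 and 789 bases, and only 1 of them holds the motif.

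Promoters of the H2A and H2B genes are mostly shared: 12 pairs of the genes lay head to head with overlapping promoter windows, 11 of them an H2A with an H2B gene. The other pair, H2BC7 with H3C4, rests on an H3C4 window that is also the window of H2AC7. A window is 250 bases before to 50 after the RefSeq start (GRCh38.p14), and a pair shared 253 to 293 of its 300 bases. The 250 bases upstream of 3 starts are shown. The H2BC4 and H2BC21 windows each serve a gene called higher in LC-2/ad and an uncalled gene, and the difference within a pair was not tested. H1-2 was also called higher there. The H2BC4 window (chr6:26123927-26124176, minus strand) is shared with H2AC6, the H2BC21 window (chr1:149886683-149886932, minus strand) with H2AC20, and the H1-2 window (chr6:26056471-26056720, minus strand) is its own.
H2BC4 upstream: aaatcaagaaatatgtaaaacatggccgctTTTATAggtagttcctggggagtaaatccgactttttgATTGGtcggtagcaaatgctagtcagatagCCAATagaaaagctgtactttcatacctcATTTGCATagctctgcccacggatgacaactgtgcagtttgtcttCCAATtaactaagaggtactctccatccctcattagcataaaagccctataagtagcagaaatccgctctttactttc
H2BC21 upstream: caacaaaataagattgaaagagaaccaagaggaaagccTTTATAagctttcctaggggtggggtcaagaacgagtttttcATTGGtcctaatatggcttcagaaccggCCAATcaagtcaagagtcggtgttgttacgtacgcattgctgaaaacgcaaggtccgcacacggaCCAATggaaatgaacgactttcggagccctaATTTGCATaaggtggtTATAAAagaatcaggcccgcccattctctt
H1-2 upstream: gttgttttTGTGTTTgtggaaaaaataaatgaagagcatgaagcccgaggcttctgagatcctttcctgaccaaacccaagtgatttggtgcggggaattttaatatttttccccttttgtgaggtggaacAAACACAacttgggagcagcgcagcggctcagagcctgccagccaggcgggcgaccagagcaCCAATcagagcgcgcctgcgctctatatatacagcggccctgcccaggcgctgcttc
Capitals mark matches on either strand to the octamer ATTTGCAT, the TATA element TATAAA, the CCAAT box CCAAT and the H1 box AAACACA, and matches that overlap run together. Of 63 histone genes matched to a RefSeq window, 26 held the octamer, against 1.8% of all 35116 windows. They were 11 of 16 H2A genes, 14 of 18 H2B genes and 1 of 10 H3 genes, with none among H1 and H4. The H3 gene was H3C4, with the octamer only in the window it has in common with H2AC7. Genes of a head-to-head pair can count the same match. The H1 box stood in all 6 H1 genes and in 8 of the 63, against 5.6% of all windows. TATAAA was found in 42 of the 63 (11.5% of all windows) and CCAAT in 53 (34.6%). A match is only a description of these letters. The octamer was present in 3 of the 14 genes that rose in LC-2/ad, in 9 of 12 that were tested there and not called, and in 14 of 35 with a window among those too low to test. H1 and H4 genes, none of which held the octamer, were 1 and 5 of the 14. These counts were not split by class, and a link between octamer and response was not tested.

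Summed over all 68 genes, histone TPM in LC-2/ad were 188, 184 and 209 in the parent libraries and 326, 331 and 308 in the treated ones. The treated sum was 1.66 times that of parent cells (322 ± 11.97 against 194 ± 13.2, SD, n = 3), and the groups did not overlap. H1-2, H2AC6, H2AC25, H2BC5, H2BC12, H4C11, H4C14 and H4C15 were all called higher in LC-2/ad in the tests below. Without them the other 60 genes summed to 86.8 ± 6.62 TPM in parent and 96.1 ± 6.07 TPM in treated LC-2/ad libraries (SD, n = 3). These sums overlapped, with a ratio of 1.11. The genes left out had been called higher in these same data, so a smaller ratio was fixed by that choice. Others called higher, such as H2AC19 and H4C16, were kept. The smaller ratio therefore does not show that the rise was confined to the genes left out. In TPC-1 the sums were 122, 121 and 117 TPM in parent and 130, 99.6 and 114 TPM in treated libraries. These overlapped (120.1 ± 2.59 and 115 ± 15.1 TPM, SD, n = 3). The histone genes made up a small part of each library, 0.0194% of the LC-2/ad total in parent cells and 0.0322% in treated ones, and 0.0120% and 0.0115% in TPC-1.

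Ratios of summed TPM are given by class, and no difference between classes was tested. In LC-2/ad summed H1 TPM, those of the linker histones, were 2.17 times as high in treated as in parent cells (29.8 ± 3.44 against 13.7 ± 4.23, SD, n = 3), and H1-2 gave 28.6 of the treated 29.8 TPM. For the 4 core histones the same ratio of summed TPM was 1.51 for H2A, 1.70 for H2B, 0.850 for H3 and 1.83 for H4. The H3 sums overlapped between groups, at 10.6, 7.80 and 11.02 TPM in parent and 9.26, 8.34 and 7.46 TPM in treated libraries, while the other 4 classes did not overlap. The H3 sums include H3C14 but not its copy HIST2H3A, which was not analysed here. In TPC-1 all 5 classes overlapped, with ratios of 0.872 to 1.29. The ratio of 1.29, for H3, contained 1 treated library at 19.3 TPM beside 9.23 and 8.74 TPM.

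H2BC12, H2AC19, H2BC5, H1-2 and H4C14 gave 54.2% of the parental histone TPM in LC-2/ad and 60.0% of that of treated ones. In TPC-1 parent cells H4C11 alone gave 20.02%, and H4C11, H2BC12, H1-2, H2AC19 and H2AC20 together gave 48.8%.

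Each line was then tested gene by gene with limma on log2(TPM + 1), over all genes with a mean of at least 1 TPM in that line, and a gene was called at a p under 0.05 after Benjamini-Hochberg adjustment. Log2 fold changes are differences on that scale (treated less parent), which understates the change of low genes. In LC-2/ad 28 histone genes passed the filter, of which 14 rose and 2 fell. Of all 14118 genes tested in that line, 30.6% rose and 24.4% fell. The median log2 fold change was 0.41 for the 28 histone genes and 0.07 for all genes tested. By class the rises were 1 of 1 tested H1 gene, 3 of 9 H2A, 4 of 9 H2B, 1 of 3 H3 and 5 of 6 H4 genes, and both falls were H3 genes.

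The filter acts on both groups together. H3C6 passed it with a parent mean under 1 TPM, H2AC20, H3C10 and H3C14 passed it with a treated mean under 1 TPM, and H2BC10, H2BC17, H3C12 and H4C13 failed it with a parent mean of at least 1 TPM because their treated mean was low. With no filter, 61 histone genes were tested in LC-2/ad, 15 rose and 6 fell, against 17.8% and 13.6% of 23748 genes. The added rise was H2BC26, and the added falls were H2BC10, H3C1, H3C3 and H4C13.

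H2AC6, at chr6:26124145-26139116, had the largest rise of the tested histone genes in LC-2/ad. It was at 2.46, 2.21 and 2.14 TPM in parent and 13.9, 11.8 and 12.4 TPM in treated LC-2/ad libraries (log2 fold change 2.07 ± 0.10 SE, adjusted p = 3.16e-06). All treated libraries lay far above all parent ones. In TPC-1 the same gene was at 1.48, 2.06 and 1.68 TPM in parent and 0.818, 1.59 and 1.31 TPM in treated libraries, which overlapped (-0.30 ± 0.20 SE, adjusted p = 0.435).

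H2AC25, an H2A gene in the distal cluster of chromosome 1 at chr1:228456979-228457873, was seen in 1 line only. It was at 11.9, 9.29 and 10.3 TPM in parent and 20.2, 21.03 and 21.8 TPM in treated LC-2/ad libraries (log2 fold change 0.94 ± 0.09 SE, adjusted p = 0.000102). In TPC-1 it was listed at 0 in all 6 libraries. Its head-to-head neighbour H2BC26 averaged 0.314 TPM in parent and 0.783 TPM in treated LC-2/ad cells, without overlap and below the filter.

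H2AC19 and H2AC18, at chr1:149851061-149851624 and chr1:149842188-149842736, are copies whose annotated transcripts cannot be separated by short reads: 2.8% and 0% of their 31-base words were unique to them. H2AC19 was at 24.8, 25.1 and 24.7 TPM in parent and 30.5, 31.3 and 30.0 TPM in treated LC-2/ad libraries, with H2AC18 at 0 throughout. The rise was small (log2 fold change 0.29 ± 0.05 SE, adjusted p = 0.00207) but the groups did not overlap. In TPC-1 parent libraries H2AC19 was at 13.9, 0 and 8.99 TPM and H2AC18 at 0, 9.44 and 1.13 TPM, so the quantification assigned the pair to different copies in different libraries. Their sum was 13.9, 9.44 and 10.1 TPM in parent and 8.98, 8.25 and 12.1 TPM in treated TPC-1 libraries, which overlapped.

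The other 2 H2A genes with a mean of at least 5 TPM in a group were not called. H2AC8 varied widely among LC-2/ad parent libraries, at 0.784, 5.02 and 1.80 TPM, against 5.50, 6.68 and 4.01 TPM in treated ones (log2 fold change 1.02 ± 0.41 SE, adjusted p = 0.0647). One parent library, library 2, lay inside the treated range, and without it H2AC8 was called (1.495, adjusted p = 0.00367). Without parent library 1 the log2 fold change was 0.62 and was not called. H2AC20 had its higher level in TPC-1, at 7.97, 5.51 and 7.32 TPM in parent and 6.51, 5.29 and 5.45 TPM in treated TPC-1 libraries (-0.22 ± 0.15 SE, adjusted p = 0.438). In LC-2/ad it was at 1.23, 1.29 and 1.97 TPM in parent and 1.59, 0.402 and 0.798 TPM in treated libraries (-0.41 ± 0.26 SE, adjusted p = 0.218).

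**Figure D1:**
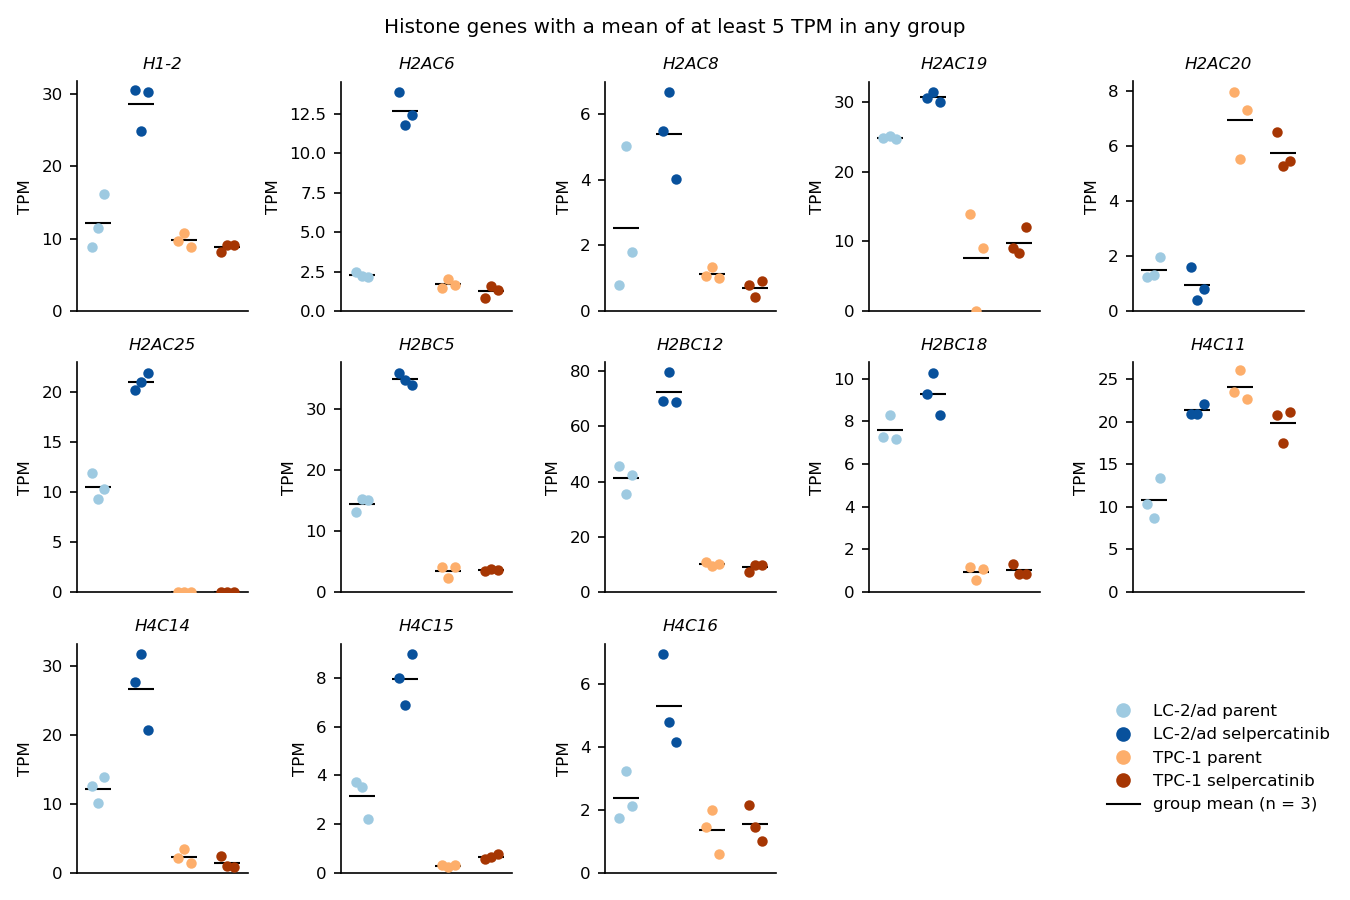
TPM (vertical axes, linear and starting at 0) of the 13 histone genes with a mean of at least 5 TPM in any group, 1 point per library and a bar at each group's mean (n = 3). In LC-2/ad the treated libraries of H2AC6, H2BC5 and H2BC12 stand clear of the parent ones, while the TPC-1 groups of these genes overlap; H2AC25 is at 0 in TPC-1.

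Among H2B genes, H2BC5 (chr6:26158146-26171349) rose furthest. It was at 13.1, 15.2 and 15.02 TPM in parent and 35.9, 34.7 and 33.8 TPM in treated LC-2/ad libraries (log2 fold change 1.22 ± 0.07 SE, adjusted p = 6.82e-06). In TPC-1 it was at 4.03, 2.33 and 4.09 TPM in parent and 3.46, 3.82 and 3.59 TPM in treated libraries, the treated ones lying inside the parent range. Its annotated span overlaps AL353759.1 and LARP1P1, and the strand setting of the quantification is not given in the sources used here.

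H2BC12 (chr6:27146418-27146798) had the highest level of any histone gene in LC-2/ad, at 45.5, 35.5 and 42.5 TPM in parent and 69.1, 79.5 and 68.8 TPM in treated libraries. It rose by a log2 fold change of 0.80 ± 0.10 SE (adjusted p = 0.000285) with no overlap. In TPC-1 it was at 10.8, 9.50 and 10.2 TPM in parent and 7.18, 9.83 and 9.72 TPM in treated libraries, which overlapped. Only 13.7% of its 31-base words were unique, and 74.4% were shared with H2BC12L, so its level is uncertain. H2BC12L itself averaged 4.42 ± 1.93 TPM in parent and 6.50 ± 1.16 TPM in treated LC-2/ad cells (SD, n = 3) and was not called (adjusted p = 0.142).

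H2BC18 (chr1:149782689-149812373) was at 7.29, 8.30 and 7.20 TPM in parent and 9.27, 10.3 and 8.29 TPM in treated LC-2/ad libraries. The highest parent library lay just above the lowest treated one, and the gene was not called (log2 fold change 0.26 ± 0.10 SE, adjusted p = 0.0692). In TPC-1 it lay between 0.553 and 1.33 TPM. The 2 remaining H2B rises in LC-2/ad were at low levels: H2BC15 went from a mean of 1.16 to 2.79 TPM and H2BC21 from 2.49 to 4.09 TPM (log2 fold changes 0.81 and 0.54, adjusted p = 0.00240 and 0.0160). Leaving out parent library 1 or treated library 1 took H2BC21 to an adjusted p of up to 0.0567. The span of H2BC15 contains H2AC15 and H2AC16.

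All H4 genes encode nearly the same protein, and 5 of the 6 tested rose in LC-2/ad. H4C14 (chr1:149832659-149839767) was at 12.6, 10.1 and 13.8 TPM in parent and 27.6, 31.6 and 20.7 TPM in treated LC-2/ad libraries (log2 fold change 1.06 ± 0.16 SE, adjusted p = 0.000996). H4C15 (chr1:149854045-149861210) was at 3.75, 3.51 and 2.23 TPM in parent and 8.01, 6.87 and 8.97 TPM in treated libraries (1.12 ± 0.17 SE, adjusted p = 0.000957). Neither pair of groups overlapped. These are near-identical copies, with 1.4% and 2.8% of their 31-base words unique, so the split between them is uncertain. Their sum was 16.4, 13.6 and 16.04 TPM in parent and 35.6, 38.5 and 29.7 TPM in treated libraries.

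H4C11 (chr6:27824108-27824480) had the higher parent level in TPC-1. In LC-2/ad it was at 10.3, 8.66 and 13.4 TPM in parent and 20.9, 20.9 and 22.1 TPM in treated libraries (log2 fold change 0.94 ± 0.14 SE, adjusted p = 0.000709). In TPC-1, where it was the most abundant histone transcript per length, it was at 23.4, 26.1 and 22.6 TPM in parent and 20.8, 17.5 and 21.1 TPM in treated libraries. The TPC-1 groups did not overlap, with the treated ones lower, but the gene was not called (-0.27 ± 0.10 SE, adjusted p = 0.155). It shares 82.2% of its 31-base words with H4C12, which was listed at 0 in all 12 libraries.

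H4C16 (chr12:14767999-14771131), the single H4 gene on chromosome 12, was at 1.73, 3.23 and 2.13 TPM in parent and 6.96, 4.78 and 4.15 TPM in treated LC-2/ad libraries (log2 fold change 0.90 ± 0.22 SE, adjusted p = 0.00895). H4C9 also rose, from a mean of 2.53 to 4.77 TPM, with a log2 fold change of 0.71. In TPC-1 H4C14, H4C15 and H4C16 all lay under 3.5 TPM in every library, and those of H4C14 and H4C16 overlapped between groups. H4C15 was at 0.312, 0.259 and 0.327 TPM in parent and 0.575, 0.664 and 0.786 TPM in treated TPC-1 libraries, without overlap and below the filter.

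Among the linker histone genes only H1-2 (chr6:26055787-26056428) passed the filter in LC-2/ad. It was at 8.91, 11.5 and 16.2 TPM in parent and 30.6, 24.9 and 30.3 TPM in treated LC-2/ad libraries (log2 fold change 1.20 ± 0.19 SE, adjusted p = 0.00110). In TPC-1 it was at 9.69, 10.8 and 8.83 TPM in parent and 8.18, 9.07 and 9.16 TPM in treated libraries, with overlap (-0.13 ± 0.11 SE, adjusted p = 0.540). H1-1, H1-3, H1-4 and H1-5 stayed at or under 1.71 TPM in every library of both lines, and H1-6, known from the testis, was at 0 in all 12.

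Of the H3 genes, 3 were tested in LC-2/ad, and each passed the filter through the group where it was higher, so their calls are a description only. H3C6 was at 1.16, 0.963 and 0.808 TPM in parent and 4.39, 5.08 and 3.72 TPM in treated LC-2/ad libraries (log2 fold change 1.45 ± 0.15 SE, adjusted p = 0.000139). H3C10 fell, at 1.78, 1.75 and 1.37 TPM in parent and 0.939, 0.863 and 0.720 TPM in treated libraries (-0.51 ± 0.16 SE, adjusted p = 0.0293). H3C14 fell by 0.57 on the log2 scale (adjusted p = 0.0233), and none of its 31-base words were unique because of its copy HIST2H3A. That copy was not analysed here, so the level of H3C14 and its fall are uncertain. Both falls were lost when single libraries were left out: H3C10 without parent library 1 or 2 or treated library 2 or 3 (adjusted p up to 0.0869), and H3C14 without parent library 1 or treated library 2 (up to 0.0807).

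**Figure D2:**
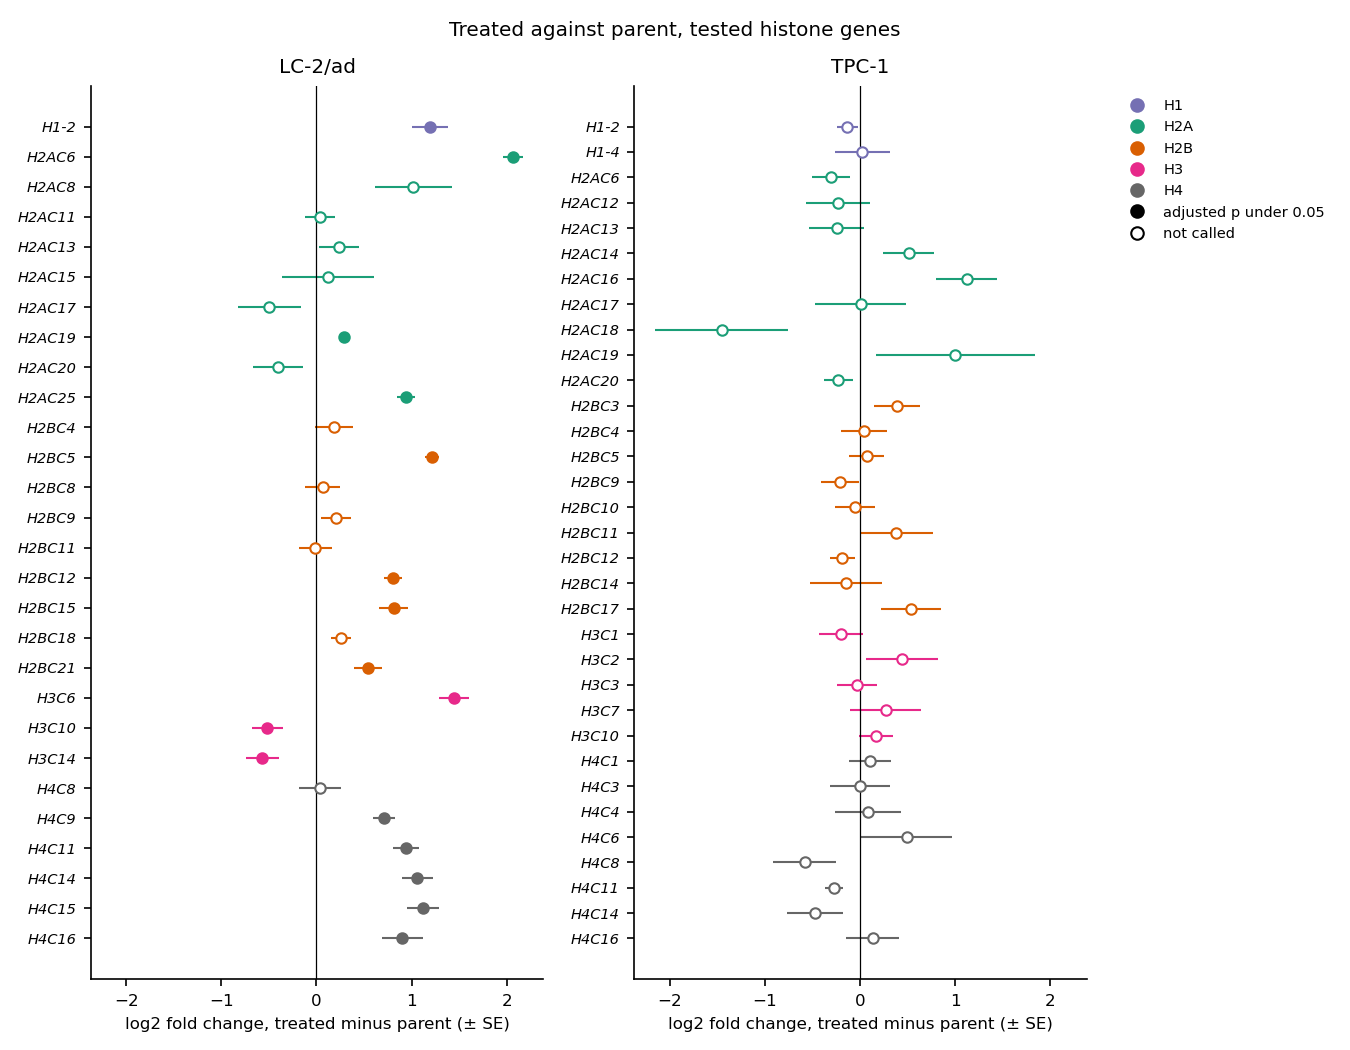
Log2 fold change on the log2(TPM + 1) scale, treated minus parent, with limma's SE as bars, for the 28 histone genes tested in LC-2/ad and the 33 tested in TPC-1; colours give the class and filled points an adjusted p under 0.05. In LC-2/ad 14 filled points lie above 0 and 2 below it, and in TPC-1 no point is filled.

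Among the 40 histone genes too low to test in LC-2/ad, lower treated means were the more frequent. Of the 40, 7 were at 0 in all 6 libraries, and of the other 33 the treated mean was the lower one in 26 and the higher one in 7. Among all 9630 genes above 0 with a mean under 1 TPM in that line, the treated mean was lower in 35.6%. Treated libraries were all at 0 for 8 of the 33 (H1-1, H2AC4, H2AC21, H2BC10, H3C1, H3C2, H3C3 and H4C13), against 14.3% of those genes. Parent and treated values did not overlap for 5 of the 33, with the treated ones lower in 4 (3.08% of those genes) and higher in 1 (12.7%). H2BC10 was at 0.640, 1.33 and 1.32 TPM in parent libraries and H4C13 at 2.32, 0.981 and 0.963 TPM, and both were at 0 in every treated library. A value of 0 in these tables says only that the gene is listed at 0.

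The same counts are given by the annotated end of the transcript, with no test of a difference between the sets; 30.6% of all genes tested in LC-2/ad rose and 24.4% fell. Of the 22 genes with a transcript running on past the stem-loop, 17 were tested in LC-2/ad, 9 rose and 2 fell (H3C10 and H3C14). Of the 8 whose transcripts with the motif end near it, 5 were tested and 3 rose. Of the 38 without a stem-loop in the annotation, only 6 were tested, 2 rose (H1-2 and H2BC12) and 32 were too low. Of the 26 low ones above 0 in that last set, the treated mean was the lower one in 22, against 35.6% of all low genes.

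Summed TPM were higher in treated LC-2/ad cells in all 3 sets. Genes running on past the stem-loop summed to 60.3, 56.0 and 58.2 TPM in parent and 115, 116 and 102 TPM in treated LC-2/ad libraries, a ratio of 1.91. Those ending near it summed to 52.5, 56.4 and 57.4 TPM in parent and 95.9, 96.7 and 92.3 TPM in treated libraries, a ratio of 1.71. Those without an annotated stem-loop summed to 75.7, 71.2 and 93.0 TPM in parent and 116, 118 and 113 TPM in treated libraries, a ratio of 1.45. The groups of none of the 3 sets overlapped. H1-2 and H2BC12, both called higher in LC-2/ad, made up most of the last set's treated sum. Without them the other 36 genes of that set were lower in treated LC-2/ad cells without overlap, a ratio of 0.546. They summed to 21.3, 24.2 and 34.3 TPM in parent and 15.9, 13.3 and 14.3 TPM in treated libraries. H1-2 and H2BC12 were the only genes of that set called higher, so a lower ratio without them was fixed by that choice. No gene was left out of the other sets, and 0.546 is not to be set against their ratios. In TPC-1 the genes without an annotated stem-loop summed to 59.2, 58.4 and 56.2 TPM in parent and 74.9, 53.1 and 57.9 TPM in treated libraries, which overlapped. The TPC-1 sums of the other sets were slightly lower in treated cells without overlap, with ratios of 0.867 (running on) and 0.836 (ending near). No p is given for these sums, and the gene models of the 2 kinds differ in length, so their TPM are scaled by different lengths.

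**Figure D3:**
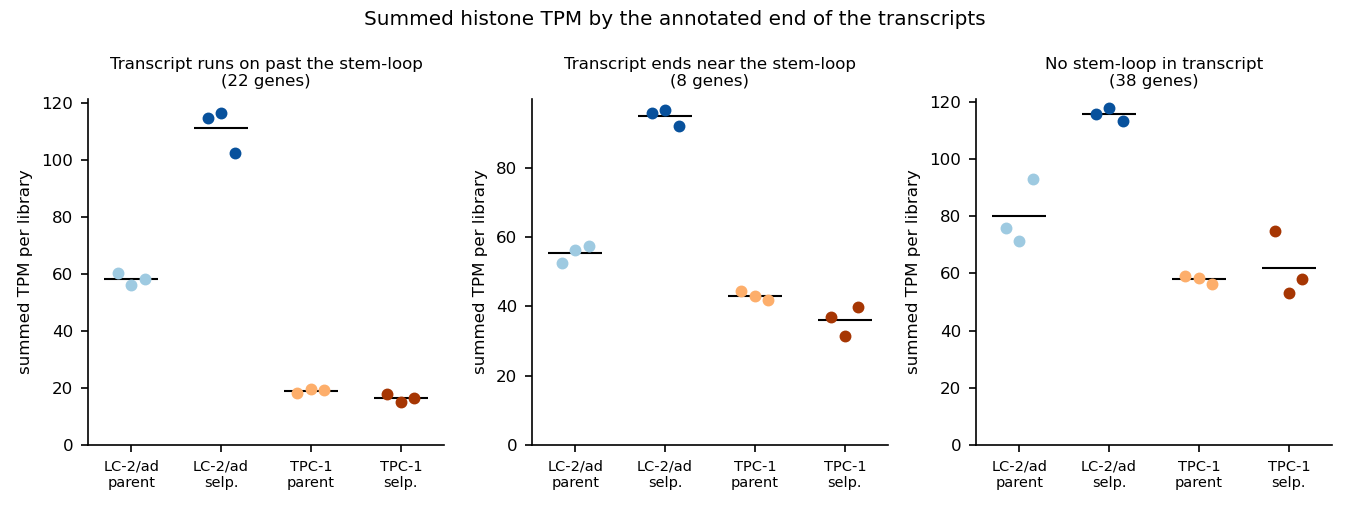
Summed TPM per library (vertical axes, starting at 0) for histone genes grouped by the annotated end of their transcripts, with a bar at each group's mean (n = 3); selp. is selpercatinib. In LC-2/ad the treated sums are higher without overlap in all 3 panels, and in TPC-1 the third panel overlaps, with 1 treated library at 74.9 TPM.

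Of the 12 head-to-head pairs, 8 had at least 1 gene tested in LC-2/ad and 5 had both. With the filter, 1 gene was called in 4 pairs and both in none. With no filter both genes of 1 pair, H2AC25 and H2BC26, were called higher (log2 fold changes 0.94 and 0.44, adjusted p = 0.000802 and 0.0139), and they share 271 bases. H2AC6 rose while H2BC4, which shares 255 bases of its window, was at 2.73, 1.34 and 2.48 TPM in parent and 2.34, 2.75 and 2.54 TPM in treated libraries (log2 fold change 0.18, adjusted p = 0.464). H2BC21 rose while H2AC20, sharing 265 bases, had a log2 fold change of -0.41 and was not called. H2BC15 rose, and H2AC15, sharing 293 bases, was at 0.606, 1.89 and 0.575 TPM in parent and 2.72, 1.53 and 0 TPM in treated libraries (0.12, adjusted p = 0.850). The difference between the genes of a pair was not tested. The genes that rose in these 4 pairs had an annotated transcript running on past the stem-loop, as did H2BC4 and H2BC26 but neither H2AC20 nor H2AC15.

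**Figure D4:**
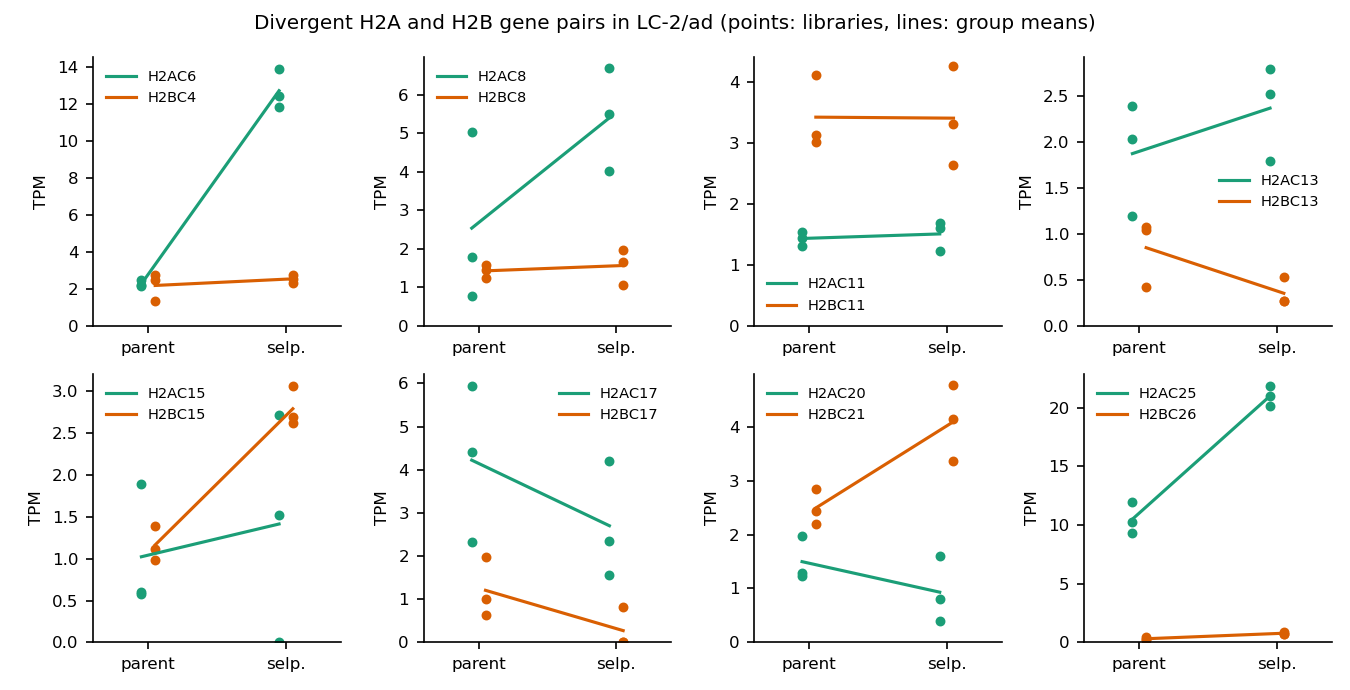
TPM in LC-2/ad parent and selpercatinib-treated (selp.) cells for the 8 head-to-head pairs with a tested gene; points are libraries (n = 3 per group), lines join group means, H2A genes are green and H2B genes orange, and axes start at 0. H2AC6 and H2BC4 start near the same level, and only H2AC6 rose (to a mean of 12.7 TPM against 2.54 TPM).

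By location, 55 of the genes lie in the clusters on the short arm of chromosome 6, 10 in the proximal and 2 in the distal cluster on chromosome 1, and 1 on chromosome 12. Against the 30.6% and 24.4% of all tested genes that rose and fell in LC-2/ad, 8 of the 19 tested on chromosome 6 rose and 1 fell, 4 of 7 in the proximal chromosome 1 cluster rose and 1 fell, and the single tested genes of the distal cluster (H2AC25) and of chromosome 12 (H4C16) rose.

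In TPC-1 33 histone genes passed the filter, and limma called none in either direction. Of all 12825 genes tested in that line, 3.75% rose and 1.21% fell. At an unadjusted p under 0.05 there was 1 histone gene each way: H2AC16 (log2 fold change 1.12, adjusted p = 0.0844) and H4C11 (-0.27, adjusted p = 0.155). H2AC16 was at 0.683, 1.09 and 0 TPM in parent and 2.57, 1.37 and 3.30 TPM in treated libraries, without overlap. The median log2 fold change of the 33 was 0.01, against 0.05 for all genes tested. More genes without an annotated stem-loop passed the filter in TPC-1 than in LC-2/ad, 21 against 6 of the 38, among them H3C1, H3C2, H3C3, H3C7 and H2AC14.

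Of the 35 genes too low to test in TPC-1, 8 were at 0 in all libraries, and of the other 27 the treated mean was the higher one in 12 and the lower one in 15, against 43.1% with a lower mean among 8753 such genes. None of the 27 was at 0 in all treated libraries, against 14.9% of those genes. Groups did not overlap for 5 of the 27, with H4C15 higher (5.66% of such genes) and 4 lower in treated cells (2.54%).

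The difference between the lines, (treated minus parent in TPC-1) minus (treated minus parent in LC-2/ad), could be tested for 16 histone genes with a mean of at least 1 TPM in each line. By limma 6 had a lower response in TPC-1 and 1 a higher one, against 14.4% lower and 22.2% higher among 11996 genes. The 6 were H2AC6 (difference of log2 fold changes -2.37 ± 0.21 SE, adjusted p = 3.09e-06), H4C14 (-1.53), H1-2 (-1.33), H4C11 (-1.21), H2BC5 (-1.14) and H2BC12 (-0.99). The 1 higher was H3C10 (0.69 ± 0.21 SE, adjusted p = 0.0226), which is lost when any of 3 LC-2/ad libraries is left out (parent library 1 or 2 or treated library 3, adjusted p up to 0.0561). Without TPC-1 treated library 1 it was too low to test. With no filter 58 histone genes were tested, 11 were lower and 3 higher, against 11.1% and 13% of 20284 genes.

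Genes that act on histone mRNA were measured beside them. SLBP, the stem-loop binding protein, fell in LC-2/ad from 90.9 ± 0.512 to 44.8 ± 1.71 TPM (SD, n = 3), and was 56.1 and 56.4 TPM in TPC-1 parent and treated cells. Of 16 genes for histone gene transcription and mRNA processing, 10 fell and 1 rose in LC-2/ad (median -0.26). Of all genes tested there 24.4% fell and 30.6% rose. In TPC-1 limma called none, with 1 higher and 2 lower at an unadjusted p under 0.05. LSM10, a protein of the U7 particle, fell from 50.1 to 35.7 TPM, the cleavage factor gene CPSF2 from 60.2 to 48.2 TPM, and UPF1, which takes part in histone mRNA decay, from 57.5 to 51.2 TPM. NPAT, the coactivator of histone gene transcription, was not called (16.1 and 13.8 TPM, adjusted p = 0.109). HINFP, an activator of H4 genes and the 1 that rose, was named after its value was seen (38.05 to 49.3 TPM).

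Histone chaperones and DNA replication genes had no rise in LC-2/ad, where 30.6% of all genes tested rose and 24.4% fell. Of 16 chaperone genes 12 fell (median log2 fold change -0.53), among them NASP from 228 to 113 TPM, SSRP1 from 198 to 111 TPM, RBBP4 from 221 to 154 TPM and NAP1L1 from 373 to 297 TPM. Of 19 DNA replication and cycling genes all 19 fell (median -1.55), among them RRM2 from 258 to 62.0 TPM, PCNA from 176 to 73.5 TPM, TYMS from 52.9 to 18.2 TPM, MCM7 from 179 to 94.4 TPM and MKI67 from 59.1 to 16.96 TPM. In TPC-1 limma called none of either list. At an unadjusted p under 0.05 none was higher, and 1 chaperone and 3 replication genes were lower there.

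Replication-independent variants were far more abundant than the replication-dependent genes and moved otherwise. In LC-2/ad 7 of 11 tested fell and 1 rose, against 24.4% and 30.6% of all genes tested. In TPC-1 limma called none of the 11, with 1 higher and 2 lower at an unadjusted p under 0.05. H2AZ1 fell from 645 to 226 TPM and MACROH2A1 from 323 to 238 TPM, H3-3B fell from 1186 to 1099 TPM, and H3-3A was not called (511 and 507 TPM, adjusted p = 0.902). The replication-dependent genes therefore made up a larger share of H2A TPM in treated LC-2/ad cells (3.09% ± 0.206 in parent and 8.14% ± 0.470 in treated cells, SD, n = 3). Their share of H3 TPM was 0.566% ± 0.108 and 0.514% ± 0.0529. The fall of H2AZ1 is part of the H2A share. In TPC-1 the shares were 1.85% and 1.78% for H2A and 0.861% and 1.07% for H3.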

How the data were processed

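Per the labels, total RNA of cultured cells was sequenced by Illumina protocols. The authors deposited TPM per gene, 1 table per line, each column summing to 1000000 within rounding. GRCh38, Salmon and bcl2fastq 2.20.0 appear, without roles, in the submitters' processing notes; strand, annotation and RNA selection are not given in the sources used here. Groups came from the sample labels.

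Of 37247 identifiers 34436 had a symbol and 34620 were in GENCODE 29, which gave coordinates and transcripts. Of the 68 histone genes 64 matched by current symbol and 4 (H2AC18, H2AC19, H3C2, H3C3) through an older one. Within each line log2(TPM + 1) was fitted with limma 3.58.1 in R 4.3.3 (lmFit, eBayes with trend) for genes with mean TPM of at least 1, two-sided, with Benjamini-Hochberg adjustment over all genes tested. The difference between lines used all 12 libraries. The fit was tested on simulated data with changes set only in genes above about 5 TPM. Calls at lower levels were not covered by it. Sums, overlaps and figures used Python 3.11.15 and matplotlib 3.10.9. Uniqueness is the share of a gene's 31-base words found in no other GENCODE 29 gene. Values per library are given for histone genes with a group mean of at least 5 TPM, and for others named after their values were seen. Of each related list, up to 4 genes with the highest mean TPM over the 12 libraries were named, plus MKI67, PCNA, SLBP, NPAT, H3-3A, H3-3B and H2AZ1; 1 further gene of this rule is not reported here.

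The histone genes and lists were chosen with earlier results of these data known. Alternatives covered pseudocount, filter, scaling, variance trend, a replicate block, single libraries left out and, chosen after seeing the data, near-identical copies summed. Protein sequences were not used here. TPM keep no read counts, so no counting interval is given and 3 libraries per group limit the precision.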

Additional observations from a re-analysis of the deposited data

Results flagged for a closer look

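For 7 histone genes the response to selpercatinib differed between the lines by limma's test of the difference itself, TPC-1 minus LC-2/ad, on the log2(TPM + 1) scale. The difference was -2.37 for H2AC6, -1.53 for H4C14, -1.33 for H1-2, -1.21 for H4C11, -1.14 for H2BC5 and -0.99 for H2BC12, each with a rise in LC-2/ad and no call in TPC-1. It was 0.69 for H3C10, which fell in LC-2/ad. The adjusted p was 0.00506 for H4C14 and at most 0.000669 for H1-2, H4C11, H2BC5 and H2BC12. H4C14 shares nearly all of its sequence with H4C15, and H2BC12 most of its own with H2BC12L.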

How the results depend on the processing

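The numbers of histone genes called depended mainly on the filter. In LC-2/ad 9 of 10 tested rose and 0 fell at a mean of at least 5 TPM, and 6 fell with no filter (13.6% of all genes). For the difference between lines 3 were higher and 11 lower with no filter (13% and 11.1% of all genes). At a mean of at least 5 TPM 0 were higher and 3 lower. The shares of all genes called at the 5 TPM filter are not given here, so the counts at that filter are not set against them. Leaving out single libraries gave 13 to 15 rises and 0 to 2 falls in LC-2/ad, 0 rises and 0 to 1 falls in TPC-1 (H4C8, without treated library 3), and 0 to 1 higher and 6 to 7 lower for the difference. Of the 16 LC-2/ad calls 13 held under every alternative run that tested them, and 6 of the 7 for the difference. The exceptions were H2BC21, H3C10 and H3C14.

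Summed histone TPM in LC-2/ad had a log2 ratio of 0.73, which was 0.64 with median-of-ratios scaling, 0.85 for genes with a mean of at least 1 TPM only, and 0.70 to 0.79 with a library left out. In TPC-1 it was -0.07 and lay between -0.17 and 0.023, above 0 without treated library 2. Near-identical copies summed to 1 gene gave 13 rises and 2 falls in LC-2/ad.

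Same-numbered libraries did not deviate together (correlations -0.05 to 0.05), so the numbers are not taken to pair them. With a replicate block LC-2/ad had 15 rises and 1 fall, TPC-1 had 0 and 0, and the difference had 0 higher and 6 lower. Under the block H2AC8 was called in LC-2/ad (adjusted p = 0.0285), and H3C10 was not, there (0.0548) or for the difference (0.0574). Uncalled log2 fold changes turned sign 60 times, over 26 gene and comparison pairs, without being called. The causes were not tested. Depth is unknown, and so is the counting error of low genes.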
